A study of Mus musculus with 90 samples.

Results

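Lymphoid tissue genes were followed in whole melanoma tumours from mice treated with anti-PD-L1, an antibody that blocks a brake on T cells. The 8 genes are Lta, Ltb, Cxcl13, Cxcr5, Glycam1, Madcam1, Cr2 and Clu, out of 18194 genes that the arrays measure with a probe set of 1 gene symbol. The genes were named for their roles, with earlier results of these arrays known. The probe set that stands for each gene was chosen by its mean over all 90 arrays, and tumours were called high by their own values. High tumours are therefore given as a description, with no test.

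Every tumour was subcutaneous, was labelled with the genotype Hgftg;Cdk4R24C/R24C (an Hgf transgene and a mutant Cdk4) and strain B6.cBrd, and came from an allograft, so treated and control tumours share both alleles. Anti-PD-L1 tumours were sorted by outcome into responders that shrank (17 in study 2, 10 in study 3), stabilization tumours of constant volume (3, study 3), relapses that shrank out of reach of measurement and regrew (3 and 3), growth delay tumours that appeared after treatment (2, study 2) and non-responders that kept growing (14 and 9). Controls received IgG (14 and 8) or PBS (3 and 4). Anti-PD-L1 and IgG are labelled as 10 mg/kg, PBS as 10 ml/kg, and the series description also names a higher antibody dose. Per that description, each tumour was cut into sections at necropsy, so an array reports on a piece of it.

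Lymphotoxin alpha and beta form a membrane ligand that acts through the lymphotoxin beta receptor and the non-canonical NF-kB pathway to build and maintain lymph nodes. That signal drives stromal cells to make Cxcl13, which draws B cells and follicular helper T cells carrying Cxcr5 into follicles. It also keeps up high endothelial venules, the vessels where blood lymphocytes enter lymph nodes, and the follicular dendritic cells that hold antigen for B cells.

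The deposited values are log2 expression levels, so a difference of 1 is a doubling, and array medians lay between 5.71 and 5.90. Levels of different genes are not set against each other, because probe sets differ in response. A mean over 13 melanocyte markers had a median of 10.00 over the 90 tumours and ranged from 6.55 to 10.47. In bulk tumours fewer cells of a type and less RNA per cell cannot be told apart. Study 3 controls carry separate blocks of animal numbers in the labels, so in that study treatment and cohort cannot be told apart in comparisons with IgG or PBS.

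Promoters are shown for the genes whose levels behaved most differently: Ltb, which was raised in several outcome groups, Cxcl13 and Glycam1, which peaked in a few tumours, and Madcam1, which never did. RefSeq promoter sequences (GRCm38.p6, 250 bases before to 50 after the start) matched 6 of the 8 genes, all but Clu and Cxcr5. Both strands were searched for the NF-kB consensus and for GGAGATTTG, the letters of the RelB site known from the Cxcl13 promoter itself. Capitals mark these matches.
Ltb, chr17:35194257-35194556, plus strand: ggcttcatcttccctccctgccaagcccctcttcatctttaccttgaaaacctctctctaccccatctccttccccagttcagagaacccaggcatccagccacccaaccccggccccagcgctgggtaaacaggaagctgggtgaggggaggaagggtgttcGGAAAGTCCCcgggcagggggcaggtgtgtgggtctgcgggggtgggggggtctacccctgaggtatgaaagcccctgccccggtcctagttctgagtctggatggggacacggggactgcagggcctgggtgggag
Cxcl13, chr5:95956689-95956988, plus strand: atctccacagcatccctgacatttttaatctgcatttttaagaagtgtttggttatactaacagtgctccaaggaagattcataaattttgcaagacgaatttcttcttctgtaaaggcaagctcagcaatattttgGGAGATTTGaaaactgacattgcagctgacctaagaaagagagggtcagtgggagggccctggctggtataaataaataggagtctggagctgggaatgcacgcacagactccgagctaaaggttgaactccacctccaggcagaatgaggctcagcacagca
Glycam1, chr15:103565032-103565331, minus strand: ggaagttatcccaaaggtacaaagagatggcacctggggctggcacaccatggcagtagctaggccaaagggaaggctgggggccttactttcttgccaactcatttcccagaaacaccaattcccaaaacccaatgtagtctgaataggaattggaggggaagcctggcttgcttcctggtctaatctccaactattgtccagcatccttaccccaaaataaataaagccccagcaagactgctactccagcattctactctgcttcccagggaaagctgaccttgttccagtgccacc
Madcam1, chr10:79664309-79664608, plus strand: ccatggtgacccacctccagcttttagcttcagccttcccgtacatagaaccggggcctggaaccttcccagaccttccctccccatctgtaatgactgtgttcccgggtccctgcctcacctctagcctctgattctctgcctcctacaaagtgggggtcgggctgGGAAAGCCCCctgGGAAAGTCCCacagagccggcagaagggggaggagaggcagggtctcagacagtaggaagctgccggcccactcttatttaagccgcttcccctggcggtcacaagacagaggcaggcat

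The NF-kB consensus was found in Ltb at position -87 and in Madcam1 at positions -83 and -70, and in none of the other 4 promoters. It occurs in 8.46% of 32851 promoters. The letters GGAGATTTG were found at position -113 of Cxcl13, the promoter they were taken from, and in 0.253% of all promoters. The Glycam1 promoter held neither. The PU.1 core GAGGAA was found in Ltb at position -101 and in 28.3% of promoters. A match is only a match of letters, and these data say nothing of binding.

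Ltb encodes the membrane anchor of the lymphotoxin ligand and is made by activated T and B cells. With the probe sets used, it alone of the 8 genes was called higher in responders than in non-responders over both studies. Of all genes, 18.9% rose in that comparison. The Ltb median was highest in stabilization tumours of constant volume (9.81), so a high level was not particular to tumours that shrank. Its level had a lowest value of 6.09, a median of 7.98 and a highest of 9.65 in study 2 responders, against 5.82, 6.96 and 12.02 in study 2 non-responders. In study 3 it had 7.34, 8.91 and 12.36 in responders, against 6.08, 6.84 and 7.38 in non-responders. In study 3, 9 of 10 responders lay above the highest non-responder, while the study 2 groups overlapped. Non-responder replicate 14 held the highest study 2 value, and the other 13 non-responders reached at most 7.69. Over both studies Ltb was higher in responders than in non-responders by 1.61 ± 0.30 on the log2 scale (SE; 27 against 23 tumours), 3.04-fold, with an adjusted p of 6.82e-05. Within study 3 the rise was 2.36 ± 0.46 (adjusted p = 0.000689). Within study 2 the difference was 0.85 ± 0.37 (adjusted p = 0.133). It was 1.22 ± 0.28 (adjusted p = 0.0045) without replicate 14 of the non-responders and responder replicate 3 of study 3. Replicate 14 holds the highest Ltb of its group, so leaving it out widens this difference by construction, and that value is a description.

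Against IgG the rise of Ltb was 1.72 ± 0.30 over both studies (adjusted p = 5.00e-05), 1.26 ± 0.37 in study 2 (adjusted p = 0.0117) and 2.19 ± 0.48 in study 3 (adjusted p = 0.00207). IgG tumours had a lowest value of 6.01, a median of 6.70 and a highest of 7.83 in study 2, and 6.21, 6.92 and 7.89 in study 3. In each study 9 responders lay above the highest IgG tumour, of 17 in study 2 and of 10 in study 3. These comparisons share their responders with those against non-responders, so they are not separate evidence.

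The order of the Ltb medians over the 12 groups put study 3 stabilization first (9.81), then study 3 relapse (9.05), study 3 responders (8.91), study 2 responders (7.98) and study 2 relapse (7.65). Study 2 non-responders (6.96), study 3 IgG (6.92), study 2 PBS (6.91), study 3 non-responders (6.84) and study 2 IgG (6.70) followed closely. Study 2 growth delay (6.38) and study 3 PBS (6.17) were lowest. The ranges of neighbouring groups in this order overlapped in every case. The sources used here do not say whether RMA was run on both studies at once, so levels across studies are a description.

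Lta encodes the other chain of the ligand and stayed within a narrow range outside 2 tumours. Its medians lay between 4.88 in study 2 growth delay and 5.45 in study 3 stabilization, and 88 tumours lay within 4.64 to 5.71. Study 2 non-responder replicate 14 (7.30) and study 3 responder replicate 3 (7.14) stood above them. The responder against non-responder difference was 0.09 ± 0.10 over both studies (95% interval -0.11 to 0.30, adjusted p = 0.456). Spearman's rho between Lta and Ltb was 0.27 over 90 tumours, 0.08 in study 2 and 0.50 in study 3.

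**Figure D1:**
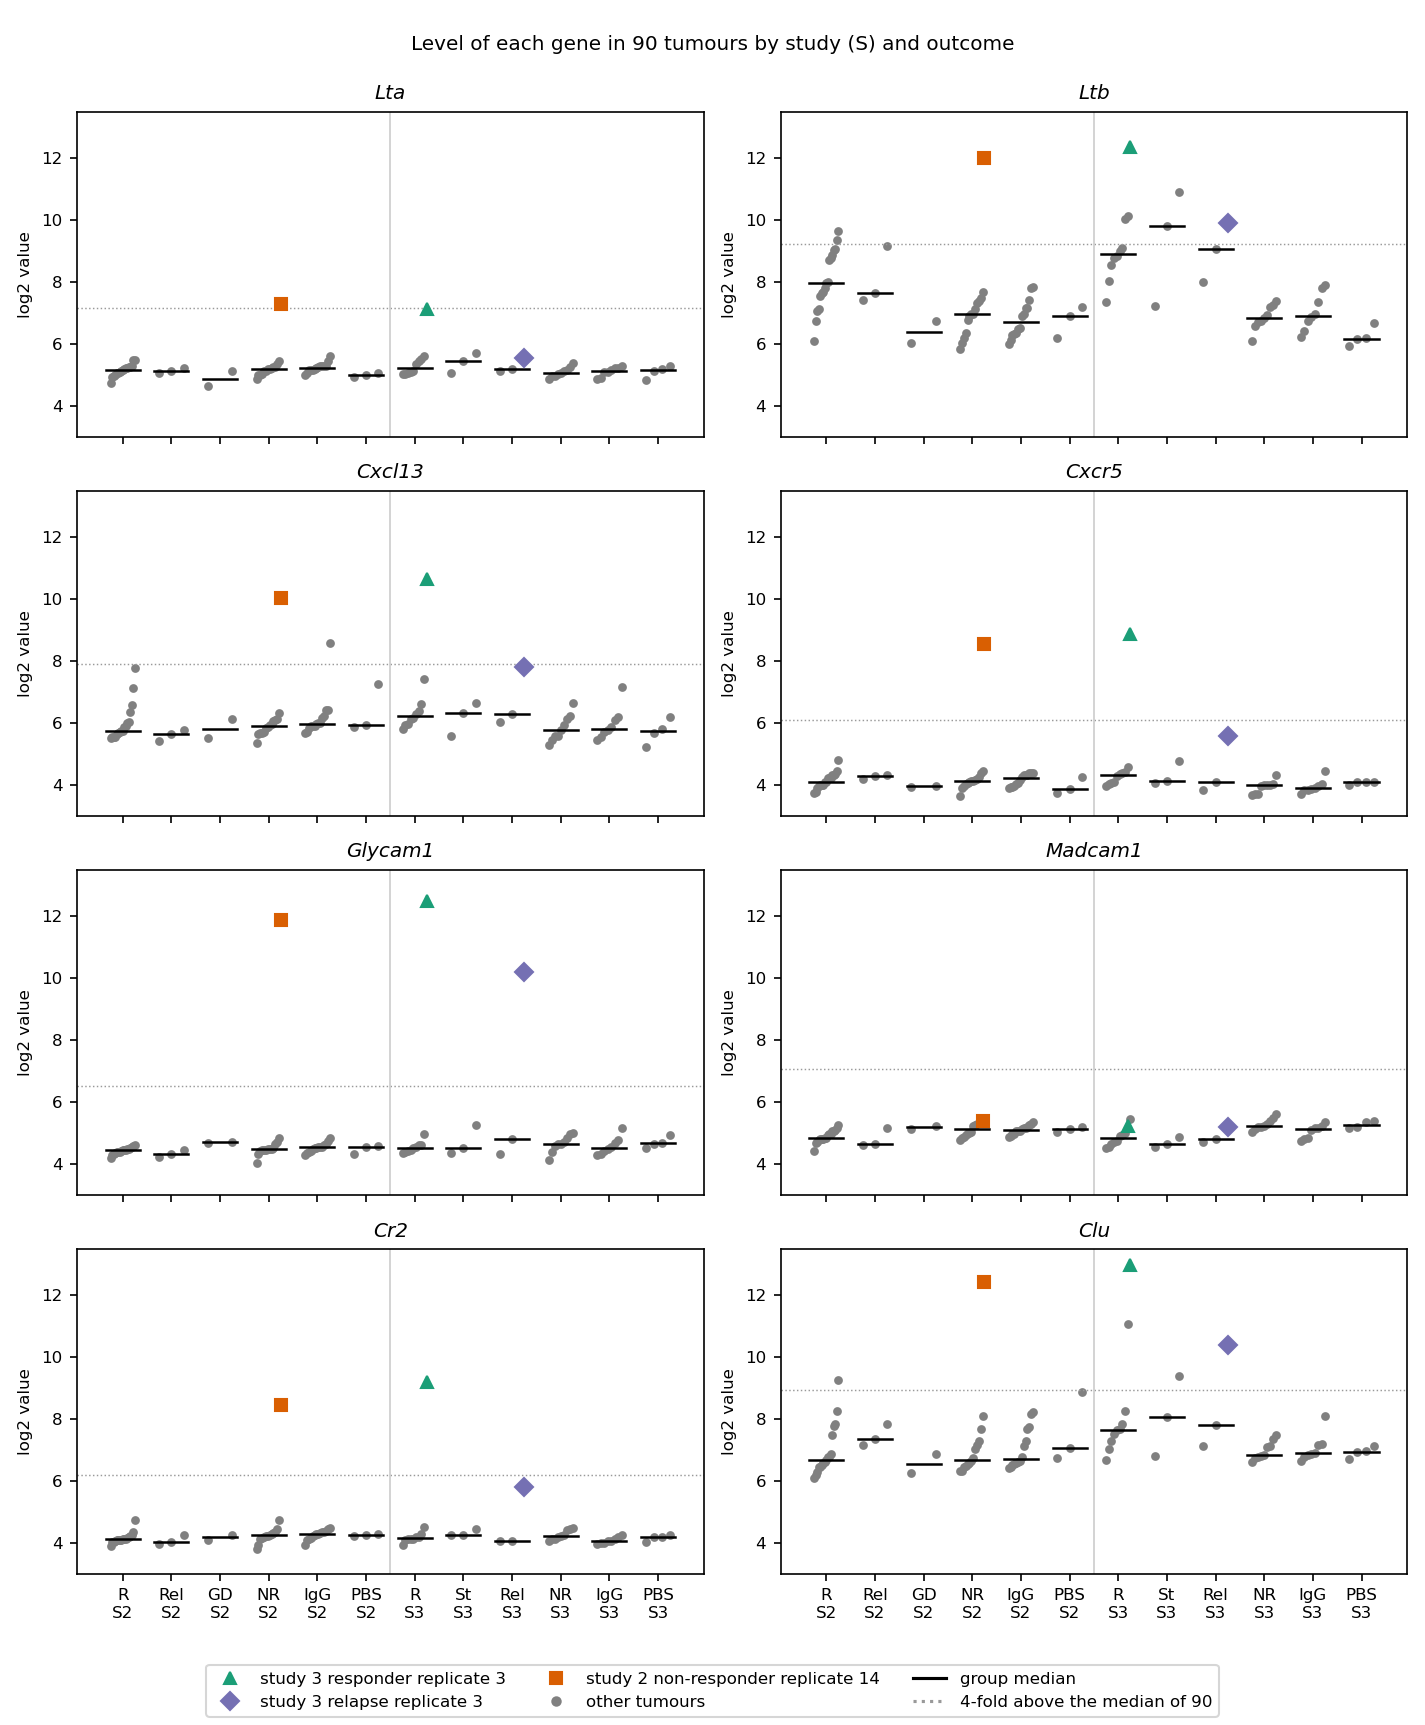
Deposited log2 level (y axis) of each gene in 90 tumours by outcome (R responder, St stabilization, Rel relapse, GD growth delay, NR non-responder) and study (S2, S3). Black bars are group medians, the dotted line lies 4-fold above the median of all tumours, and coloured symbols follow 3 tumours. Ltb medians are highest in study 3 stabilization, relapse and responder tumours, with overlap between groups, whereas Glycam1 is between 4.02 and 5.26 in all but the 3 coloured tumours.

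Cxcl13, the chemokine of B cell follicles, stayed low in most tumours and peaked in a few of different outcomes. In study 2 it had a lowest value of 5.52, a median of 5.73 and a highest of 7.76 in responders, against 5.37, 5.90 and 10.03 in non-responders. In study 3 it had 5.80, 6.22 and 10.66 in responders, against 5.27, 5.78 and 6.65 in non-responders. The third highest of the 90 values, 8.60, came from an IgG control, study 2 replicate 1, in which Cxcl13 alone of the 8 genes was high. The responder against non-responder difference was 0.37 ± 0.25 over both studies (adjusted p = 0.193) and 0.89 ± 0.39 in study 3 (adjusted p = 0.0585).

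The call for Cxcl13 depended on the probe set. The second Cxcl13 probe set gave a rise of 0.94 ± 0.38 over both studies (adjusted p = 0.0335) and of 1.88 ± 0.59 in study 3 (adjusted p = 0.0128), and -0.01 ± 0.47 in study 2. With it, study 3 responders had a lowest value of 4.92, a median of 5.74 and a highest of 11.60, against 3.99, 4.50 and 5.38 in study 3 non-responders. Both probe sets ranked the tumours alike, with a Spearman's rho of 0.76 over 90 tumours. The second also placed the 3 study 3 relapse tumours between 6.51 and 8.98, above every study 3 non-responder. They overlapped the study 3 IgG tumours, which reached 7.70, and the 3 study 2 relapse tumours lay low, between 3.96 and 4.15.

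Cxcr5, the receptor for Cxcl13 on B cells and follicular helper T cells, was low outside 3 tumours. The other 87 tumours lay between 3.65 and 4.81. Study 3 responder replicate 3 had 8.87, study 3 relapse replicate 3 had 5.58 and study 2 non-responder replicate 14 had 8.55. The responder against non-responder difference was 0.25 ± 0.21 over both studies (adjusted p = 0.318) with all tumours. Without these 3 tumours it was 0.18 ± 0.07 (adjusted p = 0.0207), and in study 3 it was 0.32 ± 0.10 (adjusted p = 0.0224), a small rise in a low signal. With the relapse tumour kept and only the other 2 left out, the adjusted p was 0.0518 over both studies and 0.0496 in study 3. The tumours left out hold the highest Cxcr5 values themselves, so the results without them are a description.

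Glycam1, a mucin of high endothelial venules that carries ligand for L-selectin and is also secreted by lactating mammary gland, had the widest range of the 8 genes, 8.47 log2 units. It was 12.49 in study 3 responder replicate 3, 10.19 in study 3 relapse replicate 3 and 11.88 in study 2 non-responder replicate 14, against a median of 4.51 over all 90 tumours. These are 252-fold, 51.1-fold and 165-fold above that median, and the next highest tumour had 5.26. The 3 tumours came from 3 different outcomes, and no outcome group was high as a whole. In study 3 relapse the other 2 tumours had 4.82 and 4.31. The responder against non-responder difference was 0.04 ± 0.37 over both studies (95% interval -0.70 to 0.79, adjusted p = 0.926). It was -0.59 ± 0.46 in study 2 and 0.68 ± 0.59 in study 3, and the tumour with high Glycam1 was a non-responder in study 2 and a responder in study 3. Without the 3 tumours the values were -0.06 ± 0.08 in study 2 and -0.12 ± 0.10 in study 3 (adjusted p = 0.551 and 0.347).

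Madcam1, the adhesion molecule through which gut-homing lymphocytes bind high endothelial venules of mucosal lymphoid tissue, was not high in any tumour, and its 90 values spanned 4.43 to 5.61. In the 3 tumours with high Glycam1 it was 5.22, 5.20 and 5.39, against a median of 5.06 over all tumours. It had a lowest value of 4.43, a median of 4.84 and a highest of 5.24 in study 2 responders, against 4.77, 5.13 and 5.48 in non-responders. In study 3 it had 4.52, 4.82 and 5.45 in responders, against 5.01, 5.21 and 5.61 in non-responders. The groups overlapped in both studies. It fell by 0.32 ± 0.06 in responders against non-responders over both studies (adjusted p = 0.000111), and the change in study 3 was -0.41 ± 0.10 (adjusted p = 0.00221). Study 2 had -0.23 ± 0.08 (adjusted p = 0.0668), which became -0.21 ± 0.08 (adjusted p = 0.0442) without the 2 tumours rich in B cell transcripts. Of the 1820 genes in the same decile of mean level as Madcam1 (decile 3 of 10, counted from the lowest), 44.5% fell in the same comparison. Whether its fall differs from that of other dim genes was not tested.

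Cr2, the complement receptor of B cells and follicular dendritic cells, was highest in the same 3 tumours as Cxcr5. Its values were 9.20 in study 3 responder replicate 3, 5.82 in study 3 relapse replicate 3 and 8.46 in study 2 non-responder replicate 14, against 3.81 to 4.74 in the other 87 tumours. The responder against non-responder difference was 0.02 ± 0.21 over both studies (95% interval -0.41 to 0.44, adjusted p = 0.948), and -0.08 ± 0.05 without the 3 tumours (adjusted p = 0.148).

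Clu encodes clusterin, a secreted chaperone that is abundant in follicular dendritic cells and made by many other cells. It had high values in the 3 tumours with high Glycam1, and was also called higher in study 3 responders than in non-responders. In study 2 it had a lowest value of 6.10, a median of 6.69 and a highest of 9.28 in responders, against 6.32, 6.69 and 12.42 in non-responders. In study 3 it had 6.68, 7.66 and 12.99 in responders, against 6.60, 6.83 and 7.49 in non-responders. The difference was 0.57 ± 0.33 over both studies (adjusted p = 0.129), -0.28 ± 0.40 in study 2 (adjusted p = 0.648) and 1.42 ± 0.51 in study 3 (adjusted p = 0.0252). The study 3 rise was smaller when a few tumours were left out together. Without responder replicate 3 and the B cell-rich non-responder of study 2 it was 0.91 ± 0.37 (adjusted p = 0.0544), and without the relapse tumour as well 0.91 ± 0.35 (adjusted p = 0.0434). Without 5 tumours low in melanocyte markers, which include responder replicates 3 and 4, it was 0.52 ± 0.32 (adjusted p = 0.248). With all tumours Clu rose in study 3 with each of its 4 probe sets, by 1.37 to 2.25.

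Of the 8 genes, 2 passed the test between responders and non-responders over both studies, Ltb upward and Madcam1 downward, where 51.2% of all genes passed (18.9% rose and 32.3% fell). In study 3, 3 passed (Ltb, Clu and Madcam1), where 36.7% of all genes did, and in study 2 none, where 2.63% did. The median change of the 8 genes was 0.17 over both studies, against -0.06 over all genes. A share of 2 in 8 is below the share of all genes, and the members were chosen with such results known. Without the 3 tumours high in Glycam1, 4 passed (Ltb, Clu and Cxcr5 upward, Madcam1 downward), where 52.3% of all genes did. That count is a description, since the highest values of Ltb, Clu and Cxcr5 lie among the tumours left out. The difference between the studies in this comparison was called for none of the 8 genes and for 0.00% of all genes by limma (2418 of 18194 at an unadjusted p under 0.05). For Ltb it was 1.50 ± 0.59 and for Clu 1.70 ± 0.65, study 3 minus study 2 (adjusted p = 0.341 for both).

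Against IgG, Ltb rose and Madcam1 fell in responders over both studies, 2 of 8, where 35.4% of all genes passed (15.3% rose and 20.1% fell). The same pair passed in study 2, where 27.3% of all genes did, and only Ltb of the 8 in study 3, where 17.4% did. Madcam1 changed by -0.19 ± 0.06 over both studies (adjusted p = 0.0154). Non-responders did not differ from IgG in any of the 8 genes by limma, and 0.00550% of all genes passed, 1 gene (1101 at an unadjusted p under 0.05). The largest difference of the 8 genes there was Glycam1 at 0.28 ± 0.39. Without non-responder replicate 14 the study 2 non-responder mean of Glycam1 was 4.48, against 4.53 in study 2 IgG. Madcam1 had 0.13 ± 0.07 by limma (adjusted p = 0.831). IgG and PBS tumours also differed in none of the 8, where 0.00550% of all genes passed (1185 at an unadjusted p under 0.05). The 3 prime minus 5 prime signal of control probe sets, a measure of RNA quality, was 5.20 in study 3 PBS replicate 2, against at most 0.93 on the arrays of the other groups. Without that tumour 2 of all genes passed, and without study 3 PBS replicate 1, whose signal was not unusual, 51 did. None of the 8 passed in either case.

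**Figure D2:**
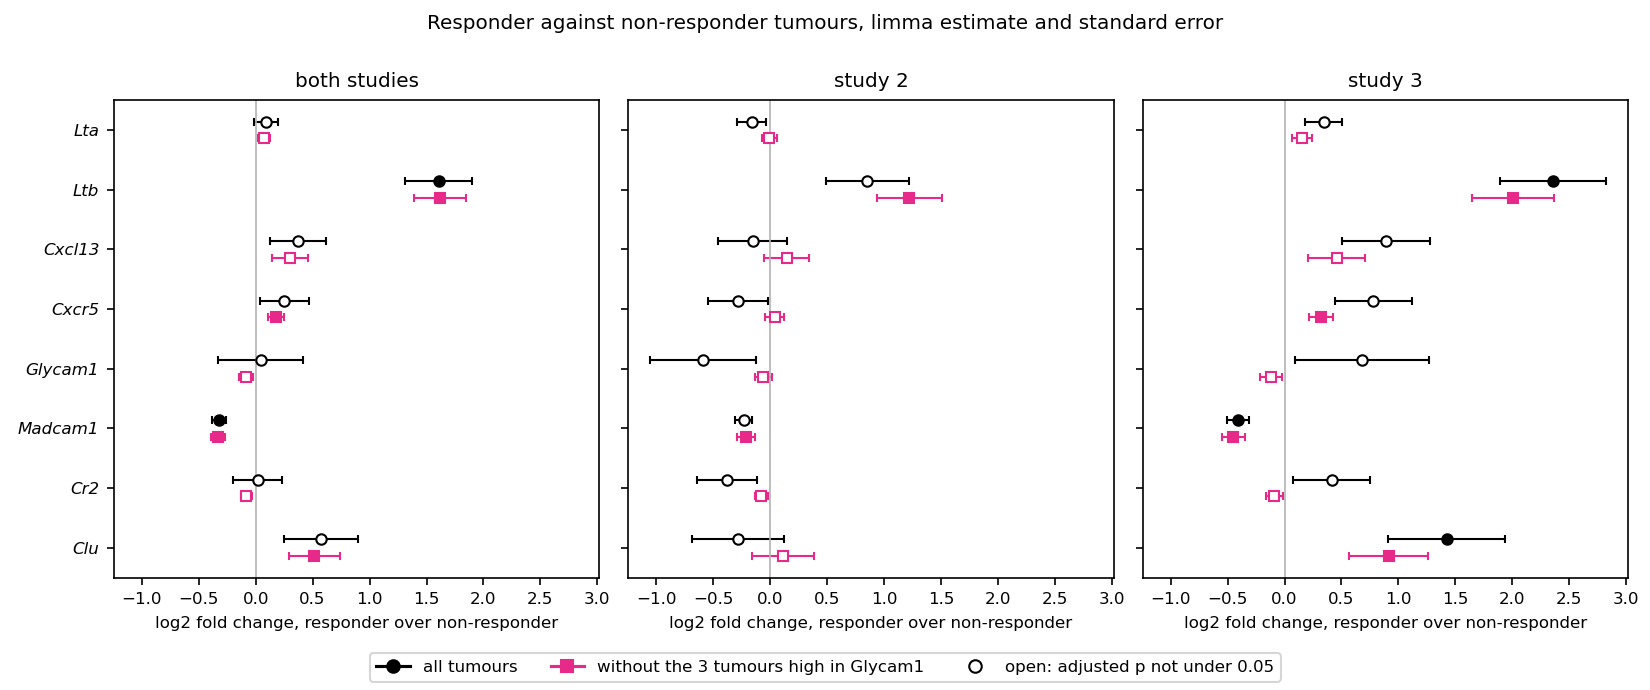
Log2 fold change of responder over non-responder tumours (x axis) for each gene, with limma's standard error, over both studies and within each. Black circles use all tumours and pink squares leave out the 3 tumours with high Glycam1. Filled symbols have an adjusted p under 0.05. Ltb lies to the right of 0 in each panel, and without the 3 tumours the Glycam1 and Cr2 values lie closer to 0 within each study. Over both studies they are near 0 either way.

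In relapse tumours Ltb was 9.18, 7.65 and 7.41 in study 2 and 9.05, 8.0 and 9.90 in study 3, all within the range of the responders of the same study. The lower 2 of study 2 also lay within the range of its IgG tumours (6.01 to 7.83), while all 3 of study 3 lay above the highest IgG tumour (7.89). Against responders the difference was -0.11 ± 0.46 over both studies (95% interval -1.02 to 0.81, adjusted p = 0.972), and none of the 8 genes passed by limma, where 0.00% of all genes did (962 at an unadjusted p under 0.05). Against non-responders Ltb was higher by 1.50 ± 0.47 (adjusted p = 0.0227) and Madcam1 lower, at -0.35 ± 0.10 (adjusted p = 0.015), 2 of 8, where 24.0% of all genes passed. These calls were lost for Ltb without study 2 relapse replicate 1 (1.22 ± 0.51, adjusted p = 0.103), study 3 relapse replicate 1 (1.48 ± 0.51, adjusted p = 0.052) or study 3 relapse replicate 3 (1.27 ± 0.51, adjusted p = 0.0838), and for Madcam1 without study 2 relapse replicates 1 (adjusted p = 0.07) or 3 (adjusted p = 0.0543). Against IgG Ltb had 1.61 ± 0.47 (adjusted p = 0.0574), and none of the 8 passed, where 1.09% of all genes did. Glycam1 in relapse tumours was set by 1 of them: the difference from non-responders was 0.81 ± 0.26 (adjusted p = 0.0158) without the 2 B cell-rich tumours, and -0.12 ± 0.10 (adjusted p = 0.355) when study 3 relapse replicate 3 was left out as well.

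The 3 stabilization tumours had Ltb at 9.81, 10.92 and 7.23, and 2 of 3 lay above every non-responder and every IgG tumour of study 3. Ltb was higher than in non-responders by 2.46 ± 0.67 (adjusted p = 0.00562) and than in IgG by 2.29 ± 0.68 (adjusted p = 0.0118). Their Madcam1 values were 4.53, 4.63 and 4.86, against 5.01 to 5.61 in the 9 non-responders, with a difference of -0.60 ± 0.14 (adjusted p = 0.00229). These values overlapped the IgG tumours of study 3 (4.73 to 5.36). How many of all genes separate such small groups is not given here, so no weight is placed on the separation from non-responders. Thus 2 of 8 genes passed against non-responders, where 31.3% of all genes did, and 1 of 8 against IgG, where 22.2% did. The Ltb rise against non-responders was not called without stabilization replicate 1 (2.22 ± 0.79, adjusted p = 0.216) or replicate 2 (1.67 ± 0.78, adjusted p = 0.129), and the same held against IgG (adjusted p = 0.415 and 0.225). The Madcam1 fall was not called without replicate 1 (adjusted p = 0.209). Replicates 1 and 2 are also among the 5 tumours low in melanocyte markers, and the part of that in the result was not tested. Stabilization values of Glycam1 were 5.26, 4.52 and 4.35, of Cr2 4.26, 4.46 and 4.24, and of Clu 9.40, 8.07 and 6.80.

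High values were shared by few tumours. A tumour was called high for a gene where it lay over 2 log2 units (4-fold) above the median of all 90. By that measure 79 tumours were high for none of the 8 genes, 6 for 1 and 2 for 2. Study 3 relapse replicate 3 was high for Ltb, Glycam1 and Clu. Study 3 responder replicate 3 was high for 6, all but Lta, which at 7.14 fell just short of 4-fold, and Madcam1. Study 2 non-responder replicate 14 was high for 7, all but Madcam1.

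The other high values were separate. Ltb was also high in study 2 responder replicates 3 and 4, study 3 responder replicates 4 and 5 and stabilization replicates 1 and 2. Clu was also high in study 2 responder replicate 14, study 3 responder replicate 4 and stabilization replicate 1. Thus 9 tumours were high for Ltb and 3 for Glycam1, all 3 of them also high for Ltb, which is 33.3% of the Ltb-high tumours and 100% of the Glycam1-high ones. Of 6 tumours high for Clu, 5 were high for Ltb. Ltb was high in some responders, in stabilization replicates 1 and 2 and in 1 non-responder, and in no control. Of the relapse tumours only study 3 replicate 3 was high for it.

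**Figure D3:**
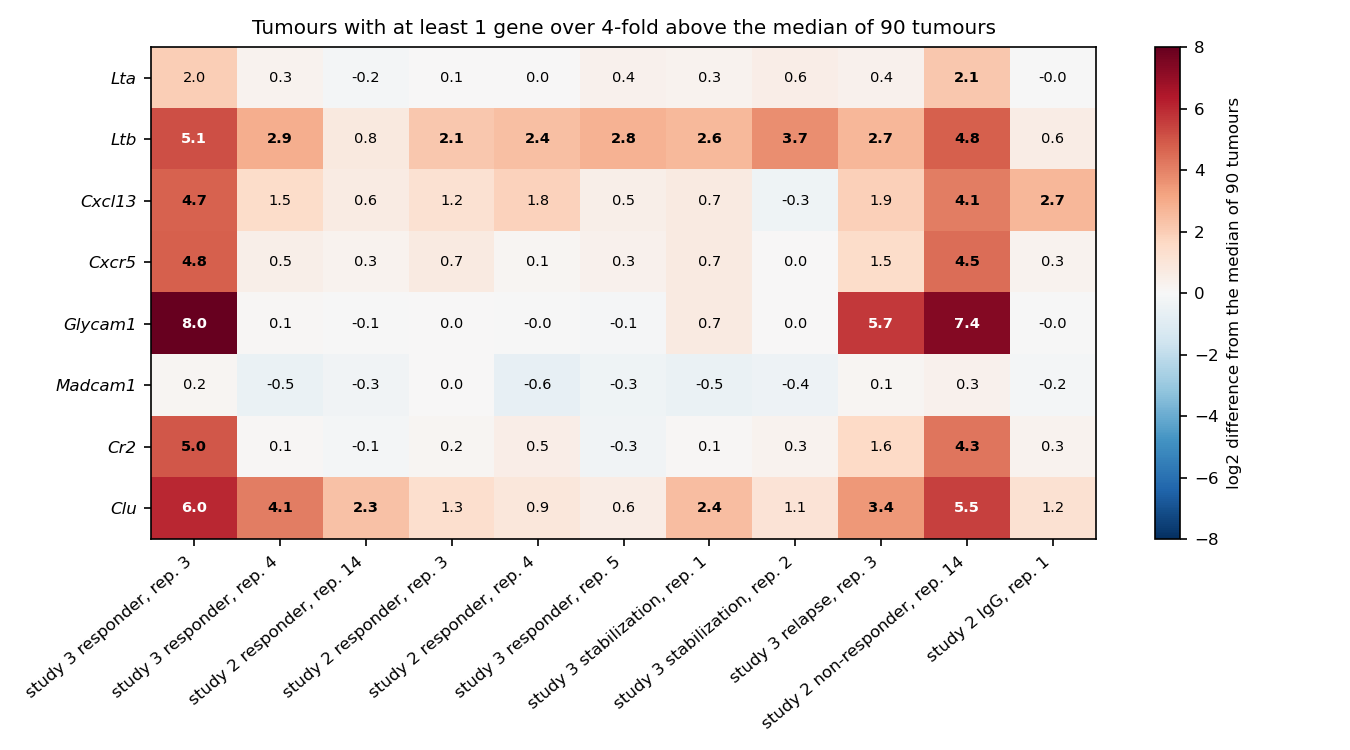
Log2 difference from the median of 90 tumours (colour and number in each cell) for the 8 genes in the 11 tumours with at least 1 gene over 4-fold above that median. Bold marks such values. The pattern over most genes recurs in study 3 responder replicate 3 and study 2 non-responder replicate 14, and the Madcam1 row stays near 0.

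The few tumours carried most of Pearson's correlation among the genes, but less of the rank correlation. Over the 28 pairs of the 8 genes, Pearson's r had a median of 0.70 with all 90 tumours and 0.15 without the 3 high in Glycam1. Spearman's rho, which depends on ranks, had a median of 0.24 with all tumours and 0.17 without the 3. With all tumours of a study its median was 0.15 in study 2 and 0.36 in study 3. The rank correlation was highest between Cxcl13 and Clu (0.49) and lowest between Ltb and Madcam1 (-0.44). The genes were measured on the same arrays and in the same mixtures of cells, so these are descriptions.

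Markers of other cells moved with the shared high tumours, so the values are given here for whole lists. The mean over 13 B cell markers, 2 of which are Cr2 and Cxcr5, was 10.11 in study 3 responder replicate 3, 7.04 in study 3 relapse replicate 3 and 9.74 in study 2 non-responder replicate 14, the 3 highest of 90 tumours, against a median of 5.08. Over 4-fold above their median were 12, 6 and 12 of the 13 markers. Ms4a1, which encodes the B cell antigen CD20, had 12.65, 9.51 and 12.30, against a median of 4.93 and at most 7.57 in the other 87 tumours. T cell markers had means of 9.26, 7.09 and 9.13 (12 genes, median 6.13), and had rank 17 in the relapse tumour.

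Fat cell markers were high as well, with means of 10.53, 9.40 and 8.65 over 7 genes (median 6.09), with ranks of 1, 2 and 5 among the 90 tumours. Of 7 such markers, 7, 6 and 3 were over 4-fold above their median, among them Adipoq, which encodes adiponectin (13.32, 12.70 and 11.67, median 6.91). Melanocyte markers were low in 2 of the 3 tumours, with means of 6.69, 9.92 and 8.30 (median 10.00). Mammary markers had the 3 highest means of all tumours, at 6.91, 6.05 and 6.17 (9 genes, median 4.97). The casein gene Csn3 (8.16, 6.49 and 7.25, median 3.78) and the epithelial genes Epcam, Krt8 and Krt18 made up the 4, 3 and 4 markers over 4-fold above their medians. The other milk genes were not raised. Csn1s1, Csn1s2a, Wap and Lalba lay below their medians of 90 in each of the 3 tumours, and Csn2 was 3.44, 3.32 and 3.66 (median 3.41). The part of these cells in the values of Glycam1, Cr2, Cxcr5 and Clu was not tested.

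Other tumours held some of these features without high Glycam1. Study 2 responder replicate 3 had an adipocyte mean of 8.62, a mammary mean of 6.03 and a B cell mean of 6.11, the fourth highest, with Glycam1 at 4.54. Study 3 responder replicate 1 had an adipocyte mean of 9.21 and a mammary mean of 6.02 with Glycam1 at 4.51. The lowest melanocyte mean of all tumours, 6.55 in study 3 responder replicate 4, came with Glycam1 at 4.62, and that of study 3 stabilization replicate 1 (6.81) with Glycam1 at 5.26, the fourth highest value.

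**Figure D4:**
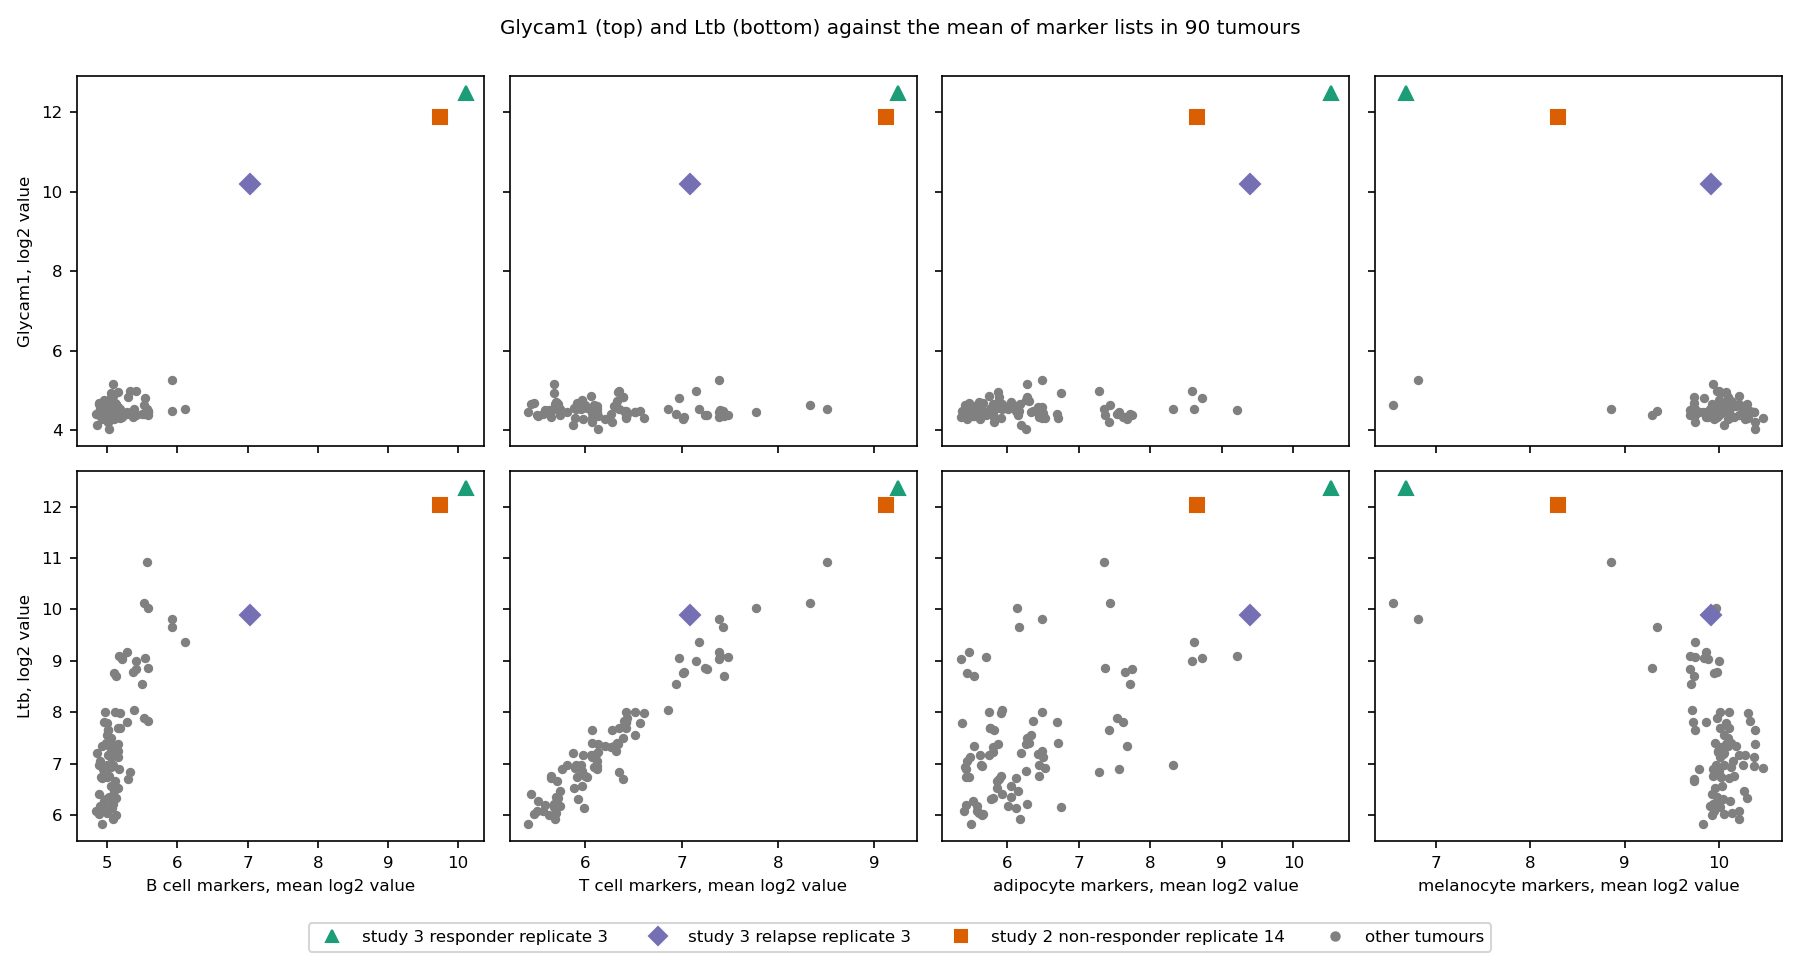
Log2 level of Glycam1 (top) and Ltb (bottom) on the y axis against the mean log2 value of B cell, T cell, adipocyte and melanocyte markers on the x axis, 1 point per tumour. The 3 tumours with high Glycam1 are coloured. Ltb climbs with the T cell mean over all tumours, whereas Glycam1 is flat outside the 3, which have the 3 highest B cell means.

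Ltb went with T cell markers in every tumour set examined. Spearman's rho between Ltb and the mean of 12 T cell markers was 0.94 over 90 tumours, 0.94 without the 3 tumours, 0.94 in study 2 and 0.94 in study 3. With 12 macrophage markers it was 0.78, and with 11 B cell markers that are not among the 8 genes 0.70. For Glycam1 rho with the T cell mean was -0.06, and for Madcam1 it was -0.40. For Clu rho was 0.69 with adipocyte, 0.67 with fibroblast, 0.62 with macrophage and 0.34 with T cell markers. With T cell markers it was 0.16 in study 2 and 0.66 in study 3, and with adipocyte markers 0.63 in study 2 and 0.70 in study 3. Differences between these values were not tested.

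The genes most like each member over the 90 tumours by Spearman's rho differed from member to member. For Ltb they were H2-DMa, Cd3g, H2-Ab1, H2-Aa and Ccl5, with rho of 0.95 to 0.96, and 0.95 for each without the 3 tumours. For Clu they were Cacna2d1, Aldh1a1, Slc7a2, Fhl1 and Crispld2 (0.75 to 0.79). The other members had no gene above 0.62. For Cxcl13 they were Inmt, Slc43a1, Ccr6, Cpz and Tmtc1 (0.55 to 0.60), for Lta Plekha2, Gm13012, Zcchc18, Smc1b and D630039A03Rik (0.50 to 0.54), and for Glycam1 Sgms2, Lce1g, Slc25a20, Tspan1 and Haao (0.56 to 0.62). For Madcam1 they were Nudt17, Dppa5a, Pnma5, Clrn1 and Apoa2 (0.55 to 0.59), for Cxcr5 Pglyrp1, Traf5, Atp10a, 1600014C10Rik and Cd79b (0.53 to 0.58), and for Cr2 Snx29, Scnn1a, Tcea2, Hoxd10 and Mark1 (0.52 to 0.57).

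Part of a mixed list of lymphotoxin, TNF and NF-kB2 genes rose in responders against non-responders over both studies. Of 14 measured genes of this list, 7 rose and none fell, with a median change of 0.28. Of all genes 18.9% rose and 32.3% fell. Besides Ltb, these were the TNF receptors Tnfrsf1b (1.30 ± 0.25) and Tnfrsf1a, the ligand Tnf (0.42 ± 0.09), the ubiquitin ligases Birc3 (0.49 ± 0.11) and Birc2, and Nfkb2 (0.39 ± 0.11), the precursor subunit of the non-canonical pathway. The receptor of the ligand, Ltbr, had -0.07 ± 0.08 (adjusted p = 0.423), and its downstream kinase Map3k14 had -0.08 ± 0.04 (adjusted p = 0.106). Relb had 0.25 ± 0.11 (adjusted p = 0.052).

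Of 9 lymphoid chemokines and receptors, 4 rose and 1 fell, with a median of 0.32. Cxcl12, a chemokine of stroma, rose by 1.51 ± 0.42, and Ccr7, which guides T cells and dendritic cells to lymph nodes, by 0.92 ± 0.21. Cxcr4 and Gpr183 also rose, and Ccl20 fell by 0.22 ± 0.05. Ccr6 and Ackr4 did not pass.

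Of 14 high endothelial venule genes, 5 rose and 4 fell, with a median of -0.01. Those that rose were Cd34, Podxl, Selp, Fut4 and Ch25h, of which Cd34, Podxl and Selp are also made by other endothelium. The sulfotransferase Chst2 fell by 0.26 ± 0.05 and the transcription factor Nkx2-3 by 0.16 ± 0.04, beside Madcam1 and Sele. The enzymes Chst4 and Fut7, which make the L-selectin ligand of these vessels, had -0.08 ± 0.04 and -0.06 ± 0.05 (adjusted p = 0.115 and 0.284). In the 3 tumours with high Glycam1, Chst4 was 3.42, 3.19 and 3.59, against a median of 3.19 and at most 3.75 in the other 87. Fut7 was 6.74, 6.13 and 6.91, against a median of 6.38 and at most 6.78 in the other 87, and Fut4, a related fucosyltransferase, was 7.06, 5.60 and 7.30, against 5.09 and at most 6.45. The mean of the 14 genes, Glycam1 among them, had ranks of 2, 4 and 1 in these tumours.

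Of 12 follicular dendritic cell genes, 7 rose and none fell, with a median of 0.44. Vcam1 rose by 1.57 ± 0.29, the B cell survival factor Tnfsf13b by 0.75 ± 0.14 and Icam1 by 0.50 ± 0.10. Fcer2a, the low-affinity IgE receptor of B cells and follicular dendritic cells, had -0.08 ± 0.17 (adjusted p = 0.698), and Sox9, Cr2, Clu and Cxcl13 did not pass either. Of the 13 B cell markers 3 rose, Bank1, Cd22 and Cd79b. These counts lie beside 18.9% of all genes rising and 32.3% falling, and the lists were written with earlier results known, so they are descriptions. Without the 3 tumours the rises were 8 of 14, 5 of 9, 5 of 14, 8 of 12 and 6 of 13 in these 5 lists, in the same order.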

How the data were processed

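RNA of 90 tumours was measured on expression arrays. The values are log2 expression levels per probe set that the authors deposited, and the submitters' processing notes name RMA and limma without versions. Arrays give no counts, so their number limits the precision. Of 45101 probe sets, 34958 have 1 gene symbol in the platform annotation, and each of 18194 genes is represented by its probe set of highest mean level.

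Tumours were grouped by the study and outcome in their labels, and every label names a different animal. The R package limma (3.58.1, R 4.3.3) fitted all arrays together with a mean for each group. From it came 14 contrasts, tested 2-sided with Benjamini-Hochberg adjustment over all genes at 0.05. Contrasts over both studies weight the studies equally. Errors are limma's standard errors. The procedure was tested on simulated data.

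The text names the 8 members, genes with the smallest p between responders and non-responders in each of 19 gene lists (up to 3 a list), other genes of the 4 lists closest to the members, and the 5 genes most like each member by Spearman's rho. Single marker genes named for the 3 tumours high in Glycam1, such as Ms4a1, Adipoq, Csn3 and Lyve1, were chosen after their values were seen. Members and lists were chosen with earlier results of these data known.

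Alternatives changed the variance model, the weighting of arrays, the probe set, the centring, the groups fitted, the dim genes kept (the lowest 30% left out), an RNA quality covariate (3 prime minus 5 prime control signal) and the tumours included. Leaving out the 3 tumours high in Glycam1 was added after seeing the data.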

Additional observations from a re-analysis of the deposited data

Results flagged for a closer look

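In groups of 4 to 10 tumours, a tumour was picked out where its gap to the nearest other tumour took up an unusually large share of the group's range. This was examined for 32 combinations of gene and group, and 8 were picked. The rule picks about 1 in 20 where values are normal and separate. The genes share the same arrays, so the picks are not separate evidence and are a description. Study 3 responder replicate 3 was picked in 5 genes, at 10.66 for Cxcl13 (next responder 7.41), 7.14 for Lta (5.59), 12.49 for Glycam1 (4.98), 8.87 for Cxcr5 (4.56) and 9.20 for Cr2 (4.51). Study 3 IgG replicate 3, a control, was picked in 3 genes, at 7.15 for Cxcl13 (next IgG tumour 6.20), 8.10 for Clu (7.20) and 4.46 for Cxcr5 (4.02). The groups of study 2 responders, non-responders and IgG tumours are too large for this measure, so study 2 non-responder replicate 14 could not be picked.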

How the results depend on the processing

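With a trend in the prior variance and robust eBayes, all 112 values of the 8 genes kept their direction and their side of the threshold. The number of the 8 genes called changed as follows, with the number from all tumours in brackets. Responders against non-responders over both studies (2) gave 1 with dim genes left out and 4 without the 3 tumours high in Glycam1, and in study 2 (0) they gave 1 with median centring and 2 with array weights, without the 2 tumours high in B cell markers, without those 3 tumours or without the 5 low in melanocyte markers. In study 3 (3) they gave 2 with array weights, only the compared groups, dim genes left out or without the 5, and 4 with the mean of all probe sets or without the 3. Responders against IgG, over both studies and in study 2 (2 each), gave 1 with dim genes left out, a filter that removes 4 of the 8 genes. Relapse against non-responders (2) gave 1 with dim genes left out, 5 with array weights, without the 2 tumours or without the 5, and 0 to 2 when 1 tumour was left out. Relapse against IgG (0) gave 1 with the RNA quality covariate or only the compared groups, 2 with median centring or without the 2 tumours, 3 without the 5 and 5 with array weights. Stabilization against non-responders (2) gave 0 without the 5, 1 with dim genes left out, 3 with only the compared groups or without the 2, 4 without the 3 and 5 with array weights, and stabilization against IgG (1) gave 0 without the 5, 2 with the RNA quality covariate, the mean of all probe sets, median centring, without the 2 or without the 3, and 6 with array weights. Both gave 0 to 2 when 1 stabilization tumour was left out, and without the 5 that group keeps 1 tumour, assumed to vary like the others. IgG against PBS (0) gave 1 with array weights, whose estimation stopped before it converged. Cxcl13 in stabilization against IgG turned to -0.49 with array weights, against 0.22. Apart from the tumours and genes removed, the cause was not tested. No paired analysis was possible because replicate numbers were given in accession order and each tumour came from another animal. The relapse, stabilization and PBS groups hold 3 or 4 tumours a study, which limits what their comparisons can resolve.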

Other observations

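Plasma cell markers had means of 10.37 in study 3 responder replicate 3, 7.87 in study 3 relapse replicate 3 and 10.44 in study 2 non-responder replicate 14 (10 genes, median of 90 tumours 6.84). Jchain, which joins polymeric immunoglobulin, was 13.62, 10.24 and 13.52 in these tumours, against a median of 7.04. Lymphatic endothelium markers had means of 7.63, 6.59 and 7.72 (7 genes, median 5.74), the 3 highest of 90. The lymphatic hyaluronan receptor Lyve1 was 9.89, 8.19 and 10.05 (median 6.24), while Prox1, the transcription factor of lymphatic identity, was 3.78, 3.94 and 4.01 (median 4.11). Germinal centre markers had means of 7.73, 6.80 and 7.70 (9 genes, median 6.53) and follicular helper T cell markers 8.28, 6.94 and 8.15 (10 genes, median 6.35). Dendritic cell markers had 8.02, 7.08 and 8.05 (9 genes, median 6.57), and skeletal muscle markers 4.98, 5.10 and 4.96 (12 genes, median 5.43).

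In responders against non-responders over both studies, where 18.9% of all genes rose and 32.3% fell, 4 of 9 germinal centre genes rose and none fell, led by Bcl6, a regulator of germinal centre B cells and follicular helper T cells (0.77 ± 0.19), and Cd40 (0.48 ± 0.12). Of 10 follicular helper genes 6 rose, among them Pdcd1 (1.30 ± 0.22), Sh2d1a (0.97 ± 0.23) and Icos (0.71 ± 0.16), which other T cells also make. Of 10 plasma cell genes 4 rose, with Jchain at 2.00 ± 0.46 and Prdm1 at 1.11 ± 0.22, and Fkbp11 fell by 0.65 ± 0.15. Of 8 lymph node stroma genes 4 rose and 1, Madcam1, fell. Il33 rose by 1.09 ± 0.31 and Il7, a survival factor for lymphocytes, by 0.32 ± 0.09. Of 7 lymphatic endothelium genes 2 rose, Flt4 and Pdpn, and Prox1 fell by 0.19 ± 0.07.

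Of the remaining lists, 10 of 12 T cell, 11 of 12 macrophage, 11 of 11 fibroblast, 6 of 10 blood endothelium, 4 of 7 adipocyte and 3 of 9 dendritic cell genes rose in the same comparison, and 1 T cell gene fell. Of 13 melanocyte genes 6 fell and of 9 mammary genes 3 fell, beside the 32.3% of all genes that fell, and none of either rose. None of 12 skeletal muscle genes passed.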
